A study of Homo sapiens with 48 samples.

Results

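The genes described here are 10 members of the major histocompatibility complex (MHC) class II antigen presentation machinery: the transcriptional coactivator CIITA, the invariant chain gene CD74, the α and β chain genes of HLA-DR, HLA-DP and HLA-DQ (HLA-DRA, HLA-DRB1, HLA-DPA1, HLA-DPB1, HLA-DQA1 and HLA-DQB1), and the peptide editor genes HLA-DMA and HLA-DMB. They were taken by symbol from the deposited table of raw read counts, in which each symbol has 1 row. They are 10 of 37706 genes in the table, and all 10 are among the 17749 genes with enough counts to be tested. RNA was sequenced from 4 established lymphoma lines, SUDHL6, Oci-Ly7, Oci-Ly8 and Oci-Ly18, all models of the germinal centre subtype of diffuse large B cell lymphoma. Each line was cultured for 6 days with DMSO as the vehicle control, with EPZ-5676, which inhibits DOT1L (here DOT1Li), with GSK343, which inhibits EZH2 (here EZH2i), or with both (the combination). DOT1L and EZH2 are histone methyltransferases of H3K79 and H3K27. The 16 groups of line and treatment hold 3 libraries each, 48 in all, and the study asked what the inhibitors do to the identity of these cells. Doses were not found in the labels, each line derives from 1 tumour, and whether the replicates of a group were grown separately is not said, so that p-values measure only the spread between libraries.

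MHC class II molecules are αβ heterodimers that present peptides from endosomes to CD4+ T cells, and germinal centre B cells use them to obtain T cell help. The invariant chain encoded by CD74 fills the peptide groove of new dimers and guides them to endosomes, where HLA-DM exchanges its remnant for other peptides. CIITA does not bind DNA itself: it is recruited by a complex of RFX, NF-Y and CREB family factors on a conserved promoter module, with an X box and a Y box, that these genes share, and its own level is known to limit their transcription.

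CIITA lies on chromosome 16 (chr16:10866222-10943021) and CD74 on chromosome 5 (chr5:150401637-150412969) in the GRCh38 annotation. The other members lie together on chromosome 6, from HLA-DRA (chr6:32439878-32445046), HLA-DRB1 (chr6:32577902-32589848), HLA-DQA1 (chr6:32628179-32647062) and HLA-DQB1 (chr6:32659467-32668383) to HLA-DMB (chr6:32934629-32941028), HLA-DMA (chr6:32948613-32969094), HLA-DPA1 (chr6:33064569-33080775) and HLA-DPB1 (chr6:33075990-33089696). HLA-DPA1 and HLA-DPB1 overlap each other, HLA-DMA overlaps BRD2 and CIITA overlaps DEXI. How the counting treated strand is not given in the sources used here, so counts of overlapping pairs are uncertain. HLA genes are also polymorphic and resemble one another, so reads of 1 line may align less well than those of another. How far this moves the levels was not tested.

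Promoter windows of the members are shown because the shared module is what ties these genes to CIITA. RefSeq promoter sequence (GRCh38.p14) was found for 8 of 10 members, in 9 entries. HLA-DRA and CIITA are named only. The letters CCAAT, the core of the Y box bound by NF-Y, and the letters TGATGATG were searched on both strands of the 250 bases before each start. CCAAT was in 7 of 9 member entries and in 32% of all 35116 entries. The entries without it were those of HLA-DPA1, at chr6:33080764-33080863 and chr6:33073665-33073764. They also held no TGATGATG, and their windows are not printed. TGATGATG was in 3 of 9 member entries (HLA-DRB1, HLA-DMA and HLA-DMB) and in 0.795% of all entries, and the same 3 held both, against 0.302% of all entries. A match describes letters only, not a bound site. Each window is 100 bases long and ends at position -16 before the start. It reads 5′ to 3′ on the gene's strand, and capitals mark CCAAT, the same letters on the other strand, which read as ATTGG, and also TGATGATG. They are HLA-DRB1 at chr6:32589864-32589963 on the minus strand, HLA-DMA at chr6:32953113-32953212 on the minus strand, HLA-DMB at chr6:32941044-32941143 on the minus strand, HLA-DQB1 at chr6:32666673-32666772 on the minus strand, HLA-DQA1 at chr6:32637291-32637390 on the plus strand, HLA-DPB1 at chr6:33075875-33075974 on the plus strand and CD74 at chr5:150412926-150413025 on the minus strand.
HLA-DRB1: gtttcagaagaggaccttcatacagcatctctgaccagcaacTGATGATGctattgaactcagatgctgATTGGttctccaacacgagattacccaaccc
HLA-DMA: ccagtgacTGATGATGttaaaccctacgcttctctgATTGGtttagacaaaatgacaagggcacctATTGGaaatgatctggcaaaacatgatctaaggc
HLA-DMB: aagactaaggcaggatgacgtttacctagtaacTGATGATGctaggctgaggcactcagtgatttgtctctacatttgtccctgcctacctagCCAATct
HLA-DQB1: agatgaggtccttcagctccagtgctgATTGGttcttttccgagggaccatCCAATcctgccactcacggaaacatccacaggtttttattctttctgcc
HLA-DQA1: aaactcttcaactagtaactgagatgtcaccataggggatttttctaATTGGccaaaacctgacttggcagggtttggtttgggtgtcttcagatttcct
HLA-DPB1: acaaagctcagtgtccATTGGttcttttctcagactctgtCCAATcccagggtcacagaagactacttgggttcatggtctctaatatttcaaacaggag
CD74: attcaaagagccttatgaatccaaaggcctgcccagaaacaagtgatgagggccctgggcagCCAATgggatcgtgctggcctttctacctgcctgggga

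Library totals ran from 5174269 counts (Oci-Ly8 DOT1Li replicate 3) to 18845074, and the second lowest was 11391942. The members together took between 0.138% and 0.493% of a library's counts, and CD74 alone took 39.8% to 61.8% of the members' counts. Levels are given as CPM, the count of a gene divided by the TMM-scaled size of its library. Replicate 3 of SUDHL6 stood apart for these genes: all 40 of its member values over 4 treatments were below their group's mean, 39 of them were the lowest of 3, and the median deviation was -0.21 on the log2 scale. Oci-Ly8 DMSO replicate 3 and DOT1Li replicate 3 differed from the other 46 libraries in how counts depend on transcript length. The B cell identity of the lines was checked on 6 markers, all of them expressed, with summed levels of 1013 to 2647 CPM. Of the germinal centre markers, SERPINA9 was at or near 0, with at most 0.393 CPM in any library.

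**Figure D1:**
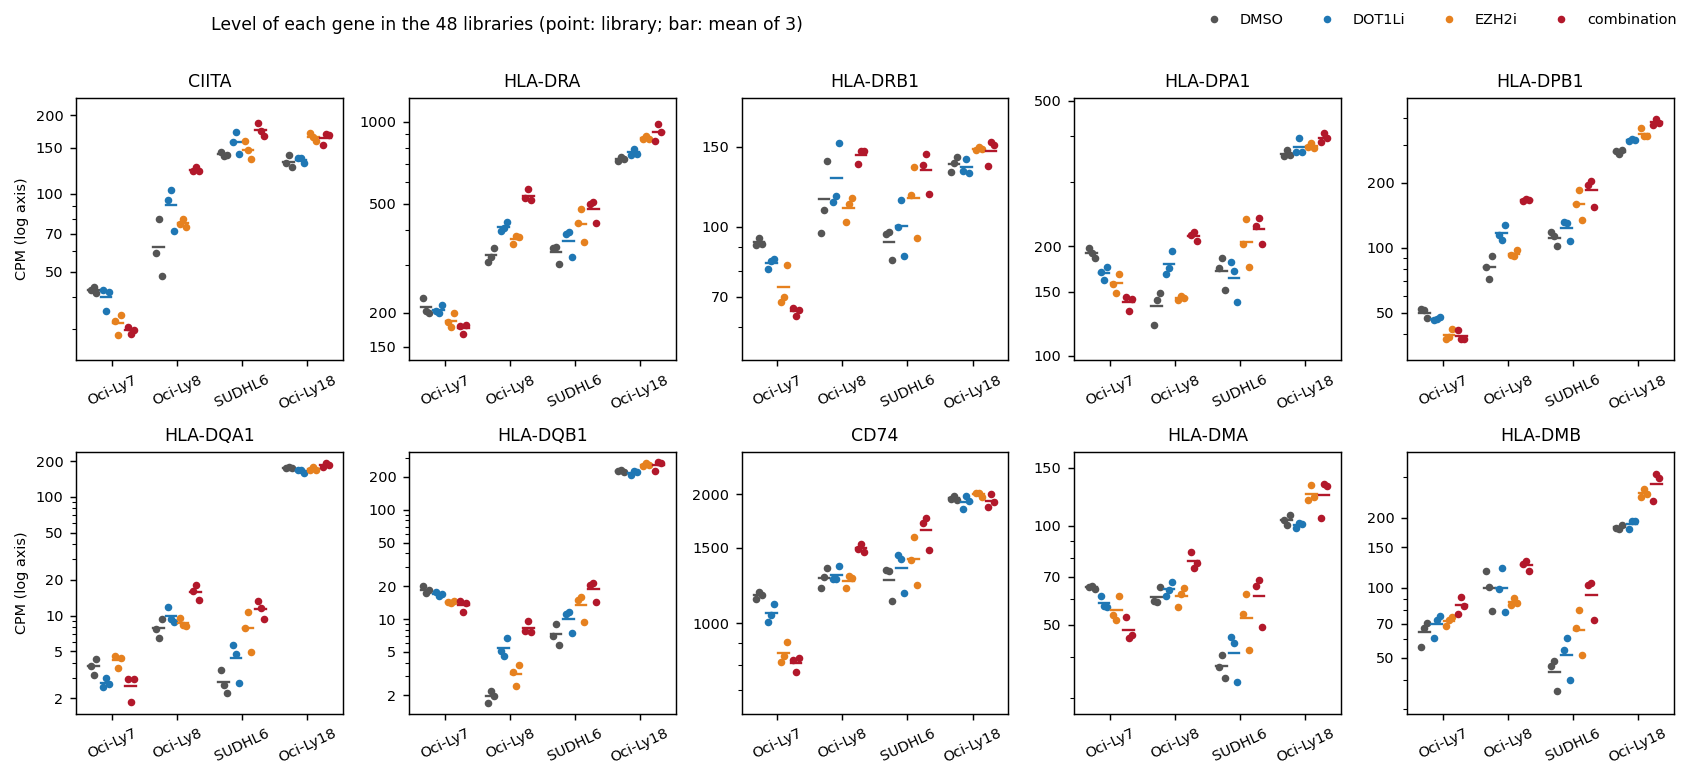
CPM (log axis) of each of the 10 genes in 48 libraries, by line on the horizontal axis and coloured by treatment; points are libraries and bars are means of 3. In Oci-Ly7 the combination points lie below DMSO for every gene except HLA-DMB, in SUDHL6 they lie above for all 10 genes and in Oci-Ly8 for 9, with overlap in HLA-DRB1, and HLA-DQA1 and HLA-DQB1 span the widest range between lines.

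In untreated cells every member differed between the lines, which is also true of 93.1% of all genes tested, and Oci-Ly18 had the highest level of each member except CIITA. Oci-Ly18 exceeded Oci-Ly7 in 10 of 10 members (37.9% of all genes were higher there), Oci-Ly8 in 10 of 10 (35% of all genes) and SUDHL6 in 9 of 10 (35.9% of all genes). The widest contrast was in HLA-DQ, the heterodimer whose chain genes are the neighbours HLA-DQA1 and HLA-DQB1. HLA-DQB1 measured 227, 231 and 221 CPM in the 3 Oci-Ly18 libraries, 20.2, 17.4 and 18.3 CPM in Oci-Ly7, 6.93, 9.06 and 5.82 CPM in SUDHL6, and 1.71, 2.19 and 1.97 CPM in Oci-Ly8. None of these 4 groups overlapped, and Oci-Ly18 exceeded Oci-Ly8 by 6.85 on the log2 scale (SE 0.18, n = 3, edgeR adjusted p = 9.9e-31). HLA-DQA1 measured 176, 178 and 175 CPM in Oci-Ly18, 7.64, 6.44 and 9.35 CPM in Oci-Ly8, 3.75, 3.13 and 4.31 CPM in Oci-Ly7, and 3.498, 2.62 and 2.22 CPM in SUDHL6. Its order was therefore different from that of HLA-DQB1: Oci-Ly8 held more HLA-DQA1 than Oci-Ly7 by 1.06 (SE 0.22, adjusted p = 3.5e-05) but less HLA-DQB1, which fell by 3.24 (SE 0.21, adjusted p = 2.4e-17) from Oci-Ly7 to Oci-Ly8. HLA-DQA1 did not pass the test between SUDHL6 and Oci-Ly7 (-0.41, SE 0.25, adjusted p = 0.14).

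CIITA had another order. It measured 144, 139 and 142 CPM in untreated SUDHL6 and 131, 140 and 127 CPM in Oci-Ly18, which overlapped and did not pass the test (Oci-Ly18 against SUDHL6 -0.09, SE 0.10, adjusted p = 0.41). Oci-Ly8 (58.9, 79.8 and 47.97 CPM) and Oci-Ly7 (42.5, 43.8 and 41.3 CPM) were lower, and Oci-Ly8 exceeded Oci-Ly7 by 0.55 (SE 0.11, adjusted p = 1.4e-05). With library totals in place of TMM, which move all genes by -0.15 in this comparison, CIITA was called lower in Oci-Ly18 than in SUDHL6 (-0.24, edgeR adjusted p = 0.0423). SUDHL6 had lower HLA-DRA than Oci-Ly18 (345, 349 and 303 against 721, 743 and 730 CPM) and the lowest HLA-DMA (37.3, 40.5 and 34.5 CPM) and HLA-DMB (45.9, 48.4 and 35.96 CPM) of the 4 lines. CD74 measured 1137, 1184 and 1166 CPM in Oci-Ly7, 1209, 1278 and 1347 CPM in Oci-Ly8, 1327, 1324 and 1127 CPM in SUDHL6, and 1945, 1980 and 1939 CPM in Oci-Ly18. Its levels in Oci-Ly7, Oci-Ly8 and SUDHL6 did not pass the test against each other (log2 differences of 0.14, 0.12 and -0.02, adjusted p = 0.109, 0.168 and 0.834). CD74 was called higher in SUDHL6 than in Oci-Ly7 with library totals (0.21, edgeR adjusted p = 0.0078) and without replicate 3 of SUDHL6 (0.20, adjusted p = 0.00558). Library totals also turned SUDHL6 against Oci-Ly8 to 0.17 (adjusted p = 0.0276). HLA-DRB1 differed least from line to line: Oci-Ly18 exceeded Oci-Ly7 by 1.49-fold, and its higher level in Oci-Ly18 than in Oci-Ly8 (0.26, SE 0.11, adjusted p = 0.0316) was lost without any 1 of 4 DMSO libraries (Oci-Ly8 replicates 1 and 2 and Oci-Ly18 replicates 2 and 3; adjusted p up to 0.257). Reads of HLA-DRB1 and HLA-DRB5, which are close in sequence, may not be fully separated, so the place of HLA-DRB1 as least different is uncertain.

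Between genes, levels can be compared only per transcript length. CD74 was highest in each untreated line, from 1097 CPM per kb in Oci-Ly7 to 1845 CPM per kb in Oci-Ly18, and HLA-DRA was next, from 171 to 597 CPM per kb. In Oci-Ly18 the α chains HLA-DPA1 and HLA-DQA1 stood at 210 and 146 CPM per kb and their β chains HLA-DPB1 and HLA-DQB1 at 178 and 138 CPM per kb. In Oci-Ly7, HLA-DPA1 (112 CPM per kb) was above HLA-DPB1 (32.1 CPM per kb) while HLA-DQA1 (3.09 CPM per kb) was below HLA-DQB1 (11.4 CPM per kb). In Oci-Ly8 the HLA-DQ chains stood the other way round, at 6.48 CPM per kb for HLA-DQA1 and 1.19 CPM per kb for HLA-DQB1.

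**Figure D2:**
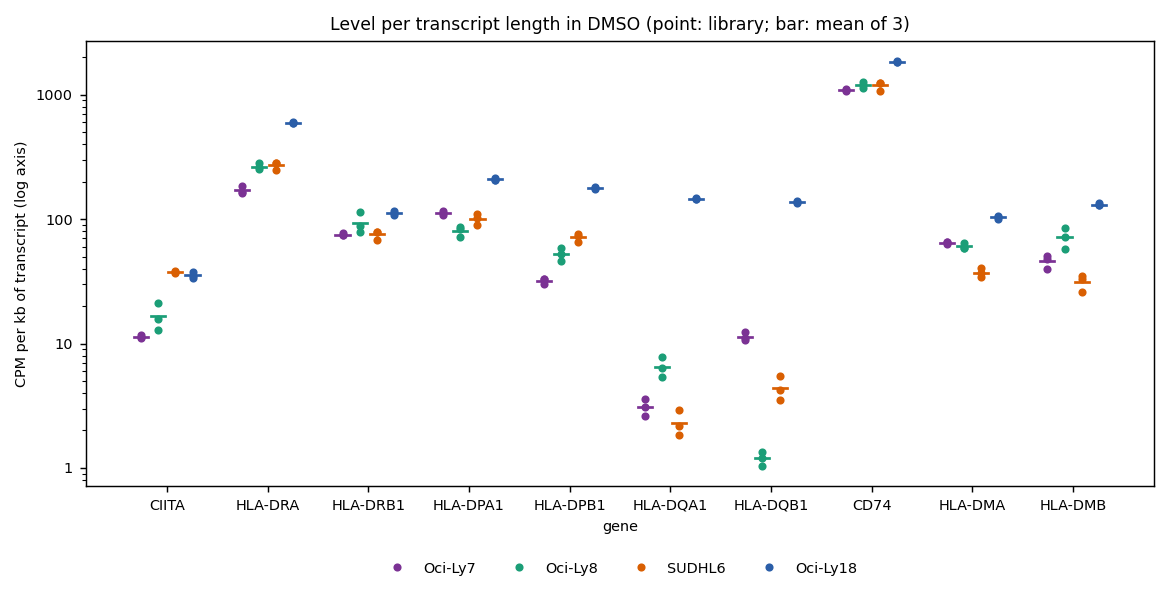
CPM per kb of transcript (log axis) of the 10 genes in DMSO, coloured by line; points are the 3 libraries and bars their means. CD74 lies highest in every line and HLA-DQA1 and HLA-DQB1 lie far lower in Oci-Ly7, Oci-Ly8 and SUDHL6 than in Oci-Ly18.

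With the combination the members moved in opposite directions in different lines. In Oci-Ly7, 8 of 10 members fell and none rose, where 12.2% of all genes fell, and the median of the members was -0.46 on the log2 scale against 0.03 for all genes tested. In Oci-Ly8, 9 of 10 rose (18.1% of all genes; median 0.68 against 0.00), in SUDHL6 10 of 10 rose (22.6% of all genes; median 0.62 against 0.05) and in Oci-Ly18 4 of 10 rose (21.1% of all genes; median 0.22 against 0.05). An F test of the difference between lines called 10 of 10 members for the combination and 43.8% of all genes, and that of HLA-DMB was lost without SUDHL6 DMSO replicate 3 or combination replicate 2 (adjusted p up to 0.0685). Groups of 3 libraries did not overlap for 10 members in Oci-Ly7 (44.1% of all genes), 9 in Oci-Ly8 (34.9%), 10 in SUDHL6 (51.7%) and 6 in Oci-Ly18 (51.2%). Each line's 3 treatments share its DMSO libraries, so the comparisons with DMSO are not independent.

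With EZH2i alone, 5 of 10 members in Oci-Ly7 fell (CIITA, CD74, HLA-DRB1, HLA-DPA1 and HLA-DPB1) and none rose, where 4.92% of all genes fell, and in SUDHL6 8 of 10 rose, where 14% of all genes rose. In Oci-Ly18, 4 of 10 rose (CIITA, HLA-DRA, HLA-DPB1 and HLA-DMB; 13% of all genes), and in Oci-Ly8 CIITA alone was called (9.04% of all genes rose), with 4 members at an unadjusted p under 0.05 and 3 called by DESeq2. The difference between lines was called for 10 of 10 members and 24% of all genes. The count in Oci-Ly7 ranged from 2 to 6 when single libraries were left out, with 4 libraries deciding it (DMSO replicates 1 and 2 and EZH2i replicates 1 and 2). HLA-DRB1 (adjusted p up to 0.154, also without DMSO replicate 3), HLA-DPA1 (up to 0.115) and HLA-DPB1 (up to 0.0559) lost their calls there, and CIITA and CD74 did not. In SUDHL6 the count fell to 5 without EZH2i replicate 2: HLA-DMB (0.0614), HLA-DPA1 (0.246) and HLA-DRB1 (0.243) were lost there, the second also without DMSO replicate 3 and the third also without DMSO replicate 3 or EZH2i replicate 1. In Oci-Ly18 it fell to 2 without DMSO replicate 2 or EZH2i replicate 1, with HLA-DPB1 (up to 0.0837) lost without either and HLA-DMB (up to 0.0572) lost without DMSO replicate 2 or EZH2i replicate 2. Fitted within the line alone, EZH2i called 8 members lower in Oci-Ly7, 0 members in Oci-Ly8 and 3 members higher in SUDHL6. In Oci-Ly18 such a fit added HLA-DQB1 (0.18, edgeR adjusted p = 0.0112) and HLA-DMA (0.24, adjusted p = 0.00468), both higher. The difference between lines was lost for HLA-DMB without Oci-Ly8 DMSO replicate 1 (0.0729).

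In the fit over all 16 groups, DOT1Li alone called members in 1 line. In Oci-Ly8, 5 of 10 rose (CIITA, HLA-DRA, HLA-DPA1, HLA-DPB1 and HLA-DQB1), where 3.53% of all genes rose. The same count came from each of 48 fits without 1 library, most of which left out a library of another group. A fit of Oci-Ly8 alone called 4, without CIITA. By edgeR's test 0 of 10 passed in Oci-Ly7 (2.9% of all genes were called in either direction), 0 in SUDHL6 (4.86%) and 0 in Oci-Ly18 (6.15%). At an unadjusted p under 0.05 the numbers were 1, 2 and 1, and DESeq2 called 0, 1 and 0. In SUDHL6, where same-numbered libraries deviated together, a fit with the replicate number as a block called 2 members, HLA-DQA1 (0.64, edgeR adjusted p = 0.0212) and HLA-DQB1 (0.47, adjusted p = 0.00237). The same block called HLA-DPB1 higher in Oci-Ly18 (0.18, adjusted p = 0.0315) and HLA-DPA1 lower in Oci-Ly7 (-0.18, adjusted p = 0.0363). A fit of Oci-Ly18 alone also called HLA-DPB1 higher (0.18, edgeR adjusted p = 0.00526). The difference between lines passed the test for CIITA, HLA-DPA1, HLA-DPB1 and HLA-DQB1, 4 of 10 against 5.14% of all genes. The CIITA difference was lost without any 1 of 4 Oci-Ly8 libraries (DMSO replicates 1 and 3 and DOT1Li replicates 1 and 2; adjusted p up to 0.132), and that of HLA-DPB1 without Oci-Ly8 DMSO replicate 2 (0.0518).

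**Figure D3:**
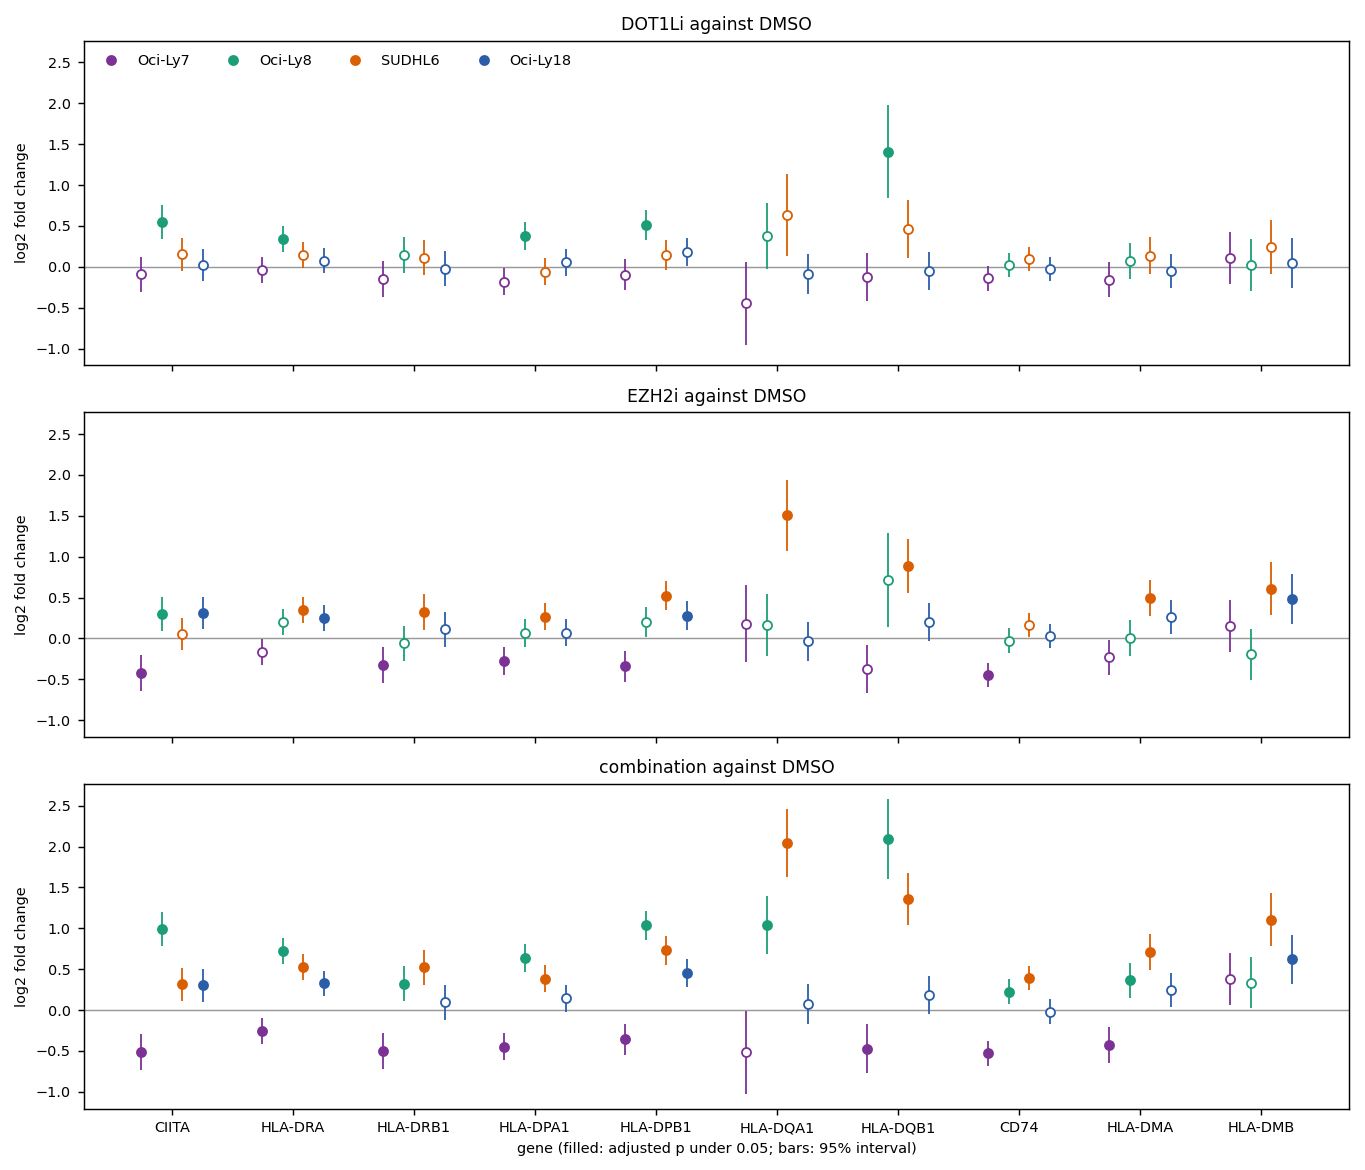
Log2 fold change against DMSO of each gene (horizontal axis) in each line (colour) for DOT1Li, EZH2i and the combination; bars are 95% intervals and filled points have an adjusted p under 0.05. With the combination the Oci-Ly7 points lie below 0 for every gene except HLA-DMB, and those of Oci-Ly8 and SUDHL6 lie above 0.

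CIITA, the master regulator, fell in Oci-Ly7 from 42.5, 43.8 and 41.3 CPM in DMSO to 32.2, 28.6 and 34.1 CPM with EZH2i and 30.7, 28.9 and 29.8 CPM with the combination, while DOT1Li libraries (42.5, 35.3 and 41.98 CPM) overlapped with DMSO. All combination and EZH2i libraries lay below all DMSO libraries. The log2 changes were -0.43 (SE 0.11, adjusted p = 0.00443) with EZH2i and -0.51 (SE 0.11, adjusted p = 0.00023) with the combination. In Oci-Ly8 CIITA rose from 58.9, 79.8 and 47.97 CPM to 94.7, 104 and 71.8 CPM with DOT1Li and to 122.7, 126 and 122.6 CPM with the combination, and EZH2i gave 76.4, 79.8 and 74.5 CPM. The DMSO libraries of Oci-Ly8 spread widely, and the combination libraries lay above all of them and close together. The lowest DMSO and DOT1Li values were those of replicate 3, the libraries that differed in how counts depend on transcript length. CIITA has the longest transcript of the members (median 3750.5 bases). The increase was 1.46-fold with DOT1Li (log2 0.55, SE 0.11, adjusted p = 0.00052) and 1.98-fold with the combination (0.99, SE 0.10, adjusted p = 1.3e-10). In a fit of Oci-Ly8 alone the DOT1Li value did not pass (0.55, edgeR adjusted p = 0.117). With EZH2i the value of 0.30 (SE 0.10, adjusted p = 0.0391) was lost without any 1 of 5 Oci-Ly8 libraries (DMSO replicates 1 and 3 and all 3 EZH2i replicates, adjusted p up to 0.407).

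In SUDHL6 CIITA was already high in DMSO at 144, 139 and 142 CPM and measured 187, 175 and 167 CPM with the combination (0.31, SE 0.10, adjusted p = 0.0088). DOT1Li (158, 173 and 142 CPM) and EZH2i (160, 147 and 135 CPM) overlapped with DMSO in SUDHL6 and did not pass. In Oci-Ly18 it went from 131, 140 and 127 CPM to 171, 165 and 159 CPM with EZH2i and 155, 169 and 168 CPM with the combination, with increases of 0.31 (SE 0.10, adjusted p = 0.018) and 0.30 (SE 0.10, adjusted p = 0.0136). The combination call in Oci-Ly18 was lost without DMSO replicate 3 or combination replicate 2 (adjusted p up to 0.0624), and the EZH2i call without DMSO replicate 1 or 3 or EZH2i replicate 1 (up to 0.0819).

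HLA-DR is the most abundant class II dimer of B cells, made of the nearly invariant α chain HLA-DRA and the polymorphic β chain HLA-DRB1. HLA-DRA measured 308, 319 and 346 CPM in Oci-Ly8 DMSO, 398, 407 and 431 CPM with DOT1Li, 356, 382 and 379 CPM with EZH2i and 525, 567 and 519 CPM with the combination. No treated library overlapped with DMSO. The combination raised it 1.66-fold (0.73, SE 0.08, adjusted p = 2.7e-10) and DOT1Li 1.27-fold (0.34, SE 0.08, adjusted p = 0.00384). In SUDHL6 HLA-DRA went from 345, 349 and 303 CPM to 425, 480 and 364 CPM with EZH2i and 501, 508 and 426 CPM with the combination, a 1.44-fold increase (0.53, SE 0.08, adjusted p = 4.2e-07). Replicate 3 was the lowest library at each treatment. In Oci-Ly18, which had the highest untreated level, it went from 721, 743 and 730 CPM to 852, 978 and 920 CPM with the combination (0.33, SE 0.08, adjusted p = 0.000814). In Oci-Ly7 the combination libraries (178, 168 and 180 CPM) lay below DMSO (226, 204 and 200 CPM), with a change of -0.26 (SE 0.08, adjusted p = 0.0105). That call was lost without Oci-Ly7 DMSO replicate 1 or combination replicate 2 (adjusted p up to 0.0898).

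HLA-DRB1 passed the test with the combination in 3 of the lines. In Oci-Ly7 it fell from 91.0, 94.2 and 91.6 CPM to 66.2, 63.6 and 65.4 CPM with the combination, 1.42-fold lower (-0.50, SE 0.11, adjusted p = 0.000292). In SUDHL6 it rose from 96.3, 97.1 and 84.2 CPM to 136, 145 and 118 CPM (0.52, SE 0.11, adjusted p = 9.8e-05). The Oci-Ly8 groups overlapped, with 96.6, 109 and 139 CPM in DMSO and 138, 147 and 147 CPM with the combination (0.32, SE 0.11, adjusted p = 0.0152), and that call was lost without DMSO replicate 1 or 2 or combination replicate 3 (up to 0.142). In Oci-Ly18 it did not pass (0.10, SE 0.11, adjusted p = 0.53). HLA-DRB5, a second DRβ gene close in sequence, stood at 213 CPM (SD 8.8, n = 3) in Oci-Ly18 DMSO and 25.2 CPM (SD 0.98, n = 3) in Oci-Ly7 DMSO, and reads of the 2 genes may not be fully separated.

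HLA-DP, the dimer of HLA-DPA1 and HLA-DPB1, was the dimer whose β chain gene passed the test with the combination in every line. HLA-DRA and CIITA passed in every line as well. HLA-DPB1 measured 81.5, 72.0 and 91.1 CPM in Oci-Ly8 DMSO, 114.6, 108 and 128 CPM with DOT1Li, then 92.2, 91.4 and 97.2 CPM with EZH2i and 165, 169 and 167 CPM with the combination. The increase was 2.05-fold with the combination (1.03, SE 0.09, adjusted p = 5.4e-13) and 1.43-fold with DOT1Li (0.51, SE 0.09, adjusted p = 0.000203). SUDHL6 went from 118, 114 and 102 CPM to 160, 186 and 134 CPM with EZH2i and 195, 204 and 154 CPM with the combination, 1.66-fold (0.73, SE 0.09, adjusted p = 3.5e-09). Oci-Ly18 went from 280, 272 and 282 CPM to 371, 395 and 378 CPM with the combination, 1.37-fold (0.46, SE 0.09, adjusted p = 3.5e-05). In Oci-Ly7 it fell from 51.9, 51.3 and 47.04 CPM to 41.6, 37.7 and 37.96 CPM, 1.28-fold (-0.36, SE 0.10, adjusted p = 0.003). HLA-DPB1 rose with the combination in 3 lines and fell in Oci-Ly7.

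HLA-DPA1 rose in Oci-Ly8 from 122, 142 and 148 CPM to 168, 174 and 194 CPM with DOT1Li (0.37, SE 0.09, adjusted p = 0.0035) and 214, 219 and 206 CPM with the combination (0.63, SE 0.08, adjusted p = 4.5e-08). EZH2i libraries of Oci-Ly8, at 143, 146 and 144 CPM, lay within the DMSO range. In Oci-Ly7 HLA-DPA1 fell from 198, 191 and 186 CPM to 145, 133 and 144 CPM with the combination, 1.36-fold (-0.45, SE 0.08, adjusted p = 3.2e-05). SUDHL6 rose from 174, 186 and 152 CPM to 227, 239 and 202 CPM (0.39, SE 0.08, adjusted p = 0.000185), and Oci-Ly18 did not pass (0.14, SE 0.08, adjusted p = 0.18).

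The HLA-DQ genes held the 3 highest fold increases with the combination, in Oci-Ly8 and SUDHL6, where they had the lowest levels per transcript length in DMSO. HLA-DQA1 was also the lowest member of Oci-Ly7 in DMSO (3.09 CPM per kb), and there its combination libraries lay below DMSO. In Oci-Ly8 HLA-DQB1 rose from 1.71, 2.19 and 1.97 CPM to 5.16, 4.64 and 6.66 CPM with DOT1Li, 3.30, 2.46 and 3.76 CPM with EZH2i and 7.74, 9.69 and 7.65 CPM with the combination. DOT1Li gave 2.65-fold (1.41, SE 0.28, adjusted p = 0.000961) and the combination 4.26-fold (2.09, SE 0.24, adjusted p = 5.0e-09), and the EZH2i libraries lay above DMSO without passing the test (0.71, SE 0.28, adjusted p = 0.0794). In SUDHL6 HLA-DQB1 went from 6.93, 9.06 and 5.82 CPM to 14.9, 16.1 and 9.35 CPM with EZH2i and 20.3, 21.4 and 14.4 CPM with the combination, 2.57-fold (1.36, SE 0.16, adjusted p = 4.3e-09). HLA-DQA1 in SUDHL6 went from 3.498, 2.62 and 2.22 CPM to 7.92, 10.7 and 4.90 CPM with EZH2i, 2.84-fold (1.51, SE 0.21, adjusted p = 1.1e-06), and to 13.2, 11.5 and 9.41 CPM with the combination, 4.11-fold (2.04, SE 0.21, adjusted p = 1.3e-10). In Oci-Ly8 HLA-DQA1 rose with the combination from 7.64, 6.44 and 9.35 CPM to 15.96, 18.1 and 13.6 CPM (1.04, SE 0.18, adjusted p = 9.6e-06).

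The HLA-DQ genes of Oci-Ly18 started 22.7-fold (HLA-DQA1) and 114.98-fold (HLA-DQB1) above those of Oci-Ly8. HLA-DQA1 measured 178, 193 and 187 CPM with the combination there (0.08, SE 0.12, adjusted p = 0.68), and HLA-DQB1 measured 228, 273 and 270 CPM (0.18, SE 0.11, adjusted p = 0.22). Even with the combination, HLA-DQB1 of Oci-Ly8 stayed at 8.36 CPM (SD 1.15, n = 3) against 226 CPM (SD 4.92, n = 3) in untreated Oci-Ly18. In Oci-Ly7 HLA-DQB1 fell from 20.2, 17.4 and 18.3 CPM to 14.7, 11.6 and 13.9 CPM with the combination (-0.47, SE 0.15, adjusted p = 0.0123), a call lost without DMSO replicate 1 or combination replicate 2 (up to 0.0877). HLA-DQA1 in Oci-Ly7 measured 2.93, 1.86 and 2.90 CPM with the combination, below the DMSO libraries but short of the threshold (-0.52, SE 0.25, adjusted p = 0.12).

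CD74, which encodes the invariant chain, fell in Oci-Ly7 from 1137, 1184 and 1166 CPM to 812, 838 and 906 CPM with EZH2i and 818, 769 and 831 CPM with the combination. These are decreases of 1.36-fold (-0.45, SE 0.07, adjusted p = 1.4e-05) and 1.44-fold (-0.53, SE 0.07, adjusted p = 1.7e-07), the smallest p-values among the members in that line. DOT1Li libraries of Oci-Ly7, at 1009, 1045 and 1108 CPM, also lay below DMSO without passing the test (-0.14, SE 0.07, adjusted p = 0.44). In SUDHL6 CD74 rose with the combination from 1327, 1324 and 1127 CPM to 1714, 1763 and 1478 CPM (0.39, SE 0.07, adjusted p = 3.2e-05). In SUDHL6 with EZH2i it measured 1407, 1593 and 1229 CPM (0.16, SE 0.07, adjusted p = 0.115), and the fit with the replicate block called it (0.16, edgeR adjusted p = 0.00816). Oci-Ly8 rose from 1209, 1278 and 1347 CPM to 1488, 1530 and 1467 CPM (0.23, SE 0.07, adjusted p = 0.0147), and the call was lost without DMSO replicate 1 or combination replicate 2 (up to 0.0648). In Oci-Ly18 CD74 was at 1945, 1980 and 1939 CPM in DMSO and 1866, 2002 and 1914 CPM with the combination (-0.02, SE 0.07, adjusted p = 0.89; 95% interval -0.17 to 0.13).

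HLA-DMA and HLA-DMB form the non-classical dimer HLA-DM, which loads peptides. They parted in Oci-Ly7: HLA-DMA fell with the combination from 65.4, 65.6 and 64.1 CPM to 53.0, 45.6 and 46.5 CPM (-0.43, SE 0.11, adjusted p = 0.00161), while HLA-DMB measured 55.7, 67.4 and 70.5 CPM in DMSO and 77.4, 91.2 and 83.9 CPM with the combination, without passing the test (0.38, SE 0.16, adjusted p = 0.062). That HLA-DMB value did pass with library totals in place of TMM (0.44, edgeR adjusted p = 0.0389), with no low-count filter (0.000147) by DESeq2 (0.0499), without replicate 3 of SUDHL6 (0.0231) and in a fit of Oci-Ly7 alone (0.00518), always in the higher direction. In SUDHL6 both rose with the combination: HLA-DMB from 45.9, 48.4 and 35.96 CPM to 103, 105 and 73.1 CPM, 2.15-fold (1.11, SE 0.16, adjusted p = 6.0e-07), and HLA-DMA from 37.3, 40.5 and 34.5 CPM to 65.7, 68.3 and 49.2 CPM, 1.63-fold (0.71, SE 0.11, adjusted p = 9.0e-07). In Oci-Ly18 HLA-DMB rose from 181, 180 and 187 CPM to 247, 266 and 253 CPM with EZH2i and 236, 309 and 298 CPM with the combination (0.62, SE 0.15, adjusted p = 0.00117). Oci-Ly8 rose in HLA-DMA (59.2, 58.7 and 65.0 CPM to 83.0, 74.7 and 77.2 CPM; 0.36, SE 0.11, adjusted p = 0.00672), and HLA-DMB missed the threshold (0.33, SE 0.15, adjusted p = 0.0925), with 118, 101 and 79.8 CPM in DMSO and 127, 131 and 119 CPM with the combination. It too passed in the higher direction with library totals (0.43, edgeR adjusted p = 0.0331), with no low-count filter (0.000729), by DESeq2 (0.0493) and without replicate 3 of SUDHL6 (0.016).

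Averaged with equal weight over the 4 lines, 8 of 10 members rose with the combination (25.7% of all genes rose), 5 of 10 with EZH2i (15.7%) and 4 of 10 with DOT1Li (5.08%), and none fell. Medians over the members were 0.30, 0.15 and 0.11 against 0.08, 0.03 and 0.01 for all genes tested. The averages join lines that moved in opposite directions. CD74 had an average of 0.02 (SE 0.04, adjusted p = 0.81) with the combination, made of a fall in Oci-Ly7 and increases in Oci-Ly8 and SUDHL6. When a whole line was left out of the average, the combination called 5 members higher and CD74 lower without SUDHL6, where HLA-DPA1 (0.11, adjusted p = 0.0607), HLA-DQA1 (0.20, 0.154) and HLA-DMA (0.06, 0.474) were lost. Without Oci-Ly8 it called 6, and CIITA (0.03, adjusted p = 0.719) and HLA-DPA1 (0.03, 0.726) were lost. Likewise, DOT1Li called 0 members without Oci-Ly8 and 2 without SUDHL6, and EZH2i called 1 member, lower, without SUDHL6 and 8 without Oci-Ly7. Without SUDHL6 the combination average of CD74 was -0.11 and was called lower (adjusted p = 0.0414), and with library totals in place of TMM the 4-line average was 0.11 and was called higher (adjusted p = 0.00839). The DOT1Li average of CIITA (0.16, SE 0.05, adjusted p = 0.0393) was lost in 16 of 48 fits that left out 1 library (up to 0.111). The average of HLA-DRA (0.13, SE 0.04, adjusted p = 0.0209) was lost without SUDHL6 DMSO replicate 3 or DOT1Li replicate 1 or 2 (up to 0.0549), where the DOT1Li count fell to 2.

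The combination was also set against each inhibitor. Against EZH2i it was higher for 10 of 10 members in Oci-Ly8 (9.82% of all genes) and for 3 of 10 in SUDHL6 (HLA-DQA1, HLA-DQB1 and HLA-DMB; 3.43% of all genes). In SUDHL6 the fit with the replicate block called 9, adding CIITA (0.26, edgeR adjusted p = 0.0137), CD74 (0.23, 0.000525), HLA-DRA (0.18, 0.0115), HLA-DRB1 (0.21, 0.0212), HLA-DPB1 (0.21, 0.0109) and HLA-DMA (0.22, 0.0327), but a fit of SUDHL6 alone called only CIITA and lost HLA-DQA1 (0.177), HLA-DQB1 (0.183) and HLA-DMB (0.158). The share of all genes called with the block was not counted. Over all 410 member results the block gained 52 calls and lost 1, so the 9 cannot be set against the 3.43%. Without replicate 3 of SUDHL6 HLA-DQA1 (0.129) and HLA-DMB (0.0632) were lost. The count in SUDHL6 ranged from 0 to 6 when single libraries were left out, 8 of which moved it by over 1.5 times (Oci-Ly8 DMSO replicates 2 and 3 and all 3 EZH2i and all 3 combination replicates of SUDHL6). In Oci-Ly7 (8.83% of all genes called) and Oci-Ly18 (12.8%) edgeR called 0 members, with 2 and 1 at an unadjusted p under 0.05 and 1 and 0 called by DESeq2. In Oci-Ly8, CIITA exceeded EZH2i by 0.69 (SE 0.10, adjusted p = 1.7e-06), HLA-DPB1 by 0.83 (SE 0.09, adjusted p = 1.1e-09) and HLA-DQB1 by 1.38 (SE 0.22, adjusted p = 6.7e-06). Without EZH2i replicate 1 of Oci-Ly8 the count there was 6.

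Against DOT1Li the combination was lower for 6 of 10 members in Oci-Ly7 (6.76% of all genes) and higher for 7 in Oci-Ly8 (10.8%), 9 in SUDHL6 (14.3%) and 5 in Oci-Ly18 (12.7%). The largest such increase was HLA-DQA1 in SUDHL6 (1.41, SE 0.19, adjusted p = 5.3e-07). Single left-out libraries of the line brought these counts down. In Oci-Ly7 the count was 3 without DOT1Li replicate 1 and 2 without DOT1Li replicate 3 or combination replicate 2. The HLA-DPB1 call there was lost in 37 of 48 fits (adjusted p up to 0.166) and by DESeq2 (0.0513), and that of HLA-DRA in 11 of 48 (up to 0.179). In Oci-Ly8 the count was 4 without DOT1Li replicate 1 or 2 and 3 without combination replicate 2. The CD74 call there was lost in 22 of 48 fits (up to 0.131) and in a fit of Oci-Ly8 alone (0.132). In Oci-Ly18 the count was 3 without DOT1Li replicate 2, 2 without DOT1Li replicate 3 or combination replicate 3, and 1 without DOT1Li replicate 1 or combination replicate 2. Averaged over the lines the combination was higher than DOT1Li for 7 members (19.4% of all genes) and than EZH2i for 6 (12.8%), and EZH2i was higher than DOT1Li for HLA-DQA1 (0.33; 13.3% of all genes). That call was lost without SUDHL6 (0.16, edgeR adjusted p = 0.377) and without Oci-Ly7 (0.24, adjusted p = 0.0914). Without Oci-Ly8 the average against EZH2i called 1 member, and without SUDHL6 that against DOT1Li called 3.

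Non-additivity, the combination minus the sum of both single effects on the log2 scale, was called by edgeR for 0 of 10 members on average (0.0507% of all genes) and for 0 in each line (0.0507% of all genes in Oci-Ly7, 0.101% in Oci-Ly8, 0.0225% in SUDHL6 and 0.361% in Oci-Ly18). DESeq2 called 0 in all 5 tests. HLA-DMB in Oci-Ly8 was called with the replicate block (0.51, edgeR adjusted p = 0.0236) and with no low-count filter (0.52, adjusted p = 0.0207). The block also called it on average (0.24, adjusted p = 0.0324). The members' medians were 0.09 on average, 0.01 in Oci-Ly7, 0.24 in Oci-Ly8, 0.08 in SUDHL6 and 0.01 in Oci-Ly18. For all genes tested they were -0.0004, -0.003, 0, -0.01 and -0.0005 in the same order. At an unadjusted p under 0.05 there was 1 member on average (HLA-DMB, 0.24, 95% interval 0.02 to 0.46) and 3 in Oci-Ly8, and 0 in the other lines. CIITA in Oci-Ly8 had a non-additivity of 0.14 with a 95% interval of -0.16 to 0.43, so departures of that size were not detectable with 3 libraries a group.

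Summed over the 10 members, Oci-Ly7 went from 1891, 1921 and 1888 CPM in DMSO to 1428, 1350 and 1435 CPM with the combination. Oci-Ly8 went from 2062, 2168 and 2275 to 2886, 2991 and 2846 CPM, SUDHL6 from 2299, 2310 and 1987 to 3163, 3240 and 2691 CPM, and Oci-Ly18 from 4250, 4329 and 4265 to 4511, 5014 and 4815 CPM. No group overlapped with its DMSO group in this sum. The 6 B cell markers moved as well: their summed level was 2585 to 2647 CPM in Oci-Ly7 DMSO and 2058 to 2273 CPM with the combination, 1222 to 1320 and 1764 to 1824 CPM in SUDHL6, 1818 to 1883 and 1591 to 1659 CPM in Oci-Ly18, and 1013 to 1431 and 1366 to 1479 CPM in Oci-Ly8. Their part in the result was not tested. In these bulk libraries fewer cells that express a gene and less RNA per cell cannot be told apart. The 6 T cell markers, mostly TRAC in Oci-Ly7, summed to 51.3 to 60.8 CPM in Oci-Ly7 DMSO and 12.5 to 19.1 CPM with the combination. In SUDHL6 they were at 11.02 to 12.2 and 15.04 to 19.3 CPM, and their ranges overlapped in Oci-Ly8 and Oci-Ly18. The 6 germinal centre markers were at 508 to 553 CPM in Oci-Ly18 DMSO and 312 to 331 CPM with the combination, at 451 to 600 and 651 to 739 CPM in Oci-Ly8, at 706 to 748 and 648 to 684 CPM in SUDHL6, and at 714 to 736 and 691 to 759 CPM in Oci-Ly7. The 6 genes listed as epithelial or stromal markers summed to a higher level with the combination in each line. The sums were 70.05 to 76.8 CPM in DMSO against 101 to 117 CPM with the combination in Oci-Ly7. They were 33.1 to 50.3 against 66.7 to 82.0 CPM in Oci-Ly8 and 5.66 to 6.49 against 12.9 to 15.9 CPM in SUDHL6. In Oci-Ly18 they were 7.50 to 8.81 against 22.2 to 27.1 CPM. Of these genes PECAM1 reached at most 113 CPM in any library, COL1A1 15.6, COL1A2 8.78, KRT8 7.62, KRT18 5.65 and EPCAM 0.168 CPM. Whether epithelial or stromal cells were present was not tested. The part of these markers in the members' values was not tested either. Markers of other antigen-presenting cells stayed low: 6 monocyte and macrophage markers summed to at most 24.1 CPM and 6 dendritic cell markers to at most 9.64 CPM in any library, and CD68, CLEC9A and CLEC4C were at or near 0 throughout.

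Across the 16 group means, after each line's own mean was removed, HLA-DRA was the member closest to the mean of the other 9 (r = 0.97), and HLA-DMB the farthest (r = 0.67). CIITA correlated with HLA-DRA at 0.90 and with HLA-DMB at 0.42. Among 13487 protein-coding genes the pattern of the members' mean was most like that of ZCWPW1 (r = 0.97), MAP3K10 (0.94), ARSA (0.93), DEGS2 (0.92) and METTL25B (0.91) and most opposite to that of OPA1 (-0.94), NDUFB9 (-0.93) and RLIM (-0.90). The pattern of CIITA was much like that of TINF2 (0.96) and ZNF582 (0.92). These are descriptions over 16 groups that share lines, treatments and DMSO libraries.

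HLA-DOA, a chain of the HLA-DM inhibitor HLA-DO, rose on average with the combination (0.42, SE 0.04, edgeR adjusted p = 3.7e-13). In Oci-Ly7 it fell from 84.9 to 67.5 CPM (-0.33, adjusted p = 0.000444). Its level went from 47.9 to 75.8 CPM in Oci-Ly8 (0.66), from 75.3 to 129 CPM in SUDHL6 (0.78) and from 84.1 to 124 CPM in Oci-Ly18 (0.55). Of the 5 such genes tested (HLA-DOA, HLA-DOB, HLA-DQA2, HLA-DQB2 and HLA-DRB5), 3 rose and 0 fell on average with the combination, where 25.7% of all genes rose and 20.7% fell. By line, 17.7% of all genes rose and 12.2% fell in Oci-Ly7, 18.1% and 16.9% in Oci-Ly8, 22.6% and 16.8% in SUDHL6, and 21.1% and 14% in Oci-Ly18, and the counts of gene lists by line are to be read against these. Of the 5 genes 0 rose and 3 fell in Oci-Ly7, 4 rose and 1 fell in Oci-Ly8, 3 rose and 0 fell in SUDHL6, and 1 rose and 0 fell in Oci-Ly18. HLA-DOB was the one that fell in Oci-Ly8 (-0.81), where the others rose.

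Next came the genes of the complex that recruits CIITA, the enhanceosome. Of 8 such genes 4 rose and 1 fell on average with the combination (25.7% and 20.7% of all genes), with a list median of 0.09 against 0.08 for all genes. RFX5, the DNA-binding subunit of RFX, rose (0.27, SE 0.04, adjusted p = 1.6e-08), with values of 0.48 in Oci-Ly8, 0.29 in SUDHL6 and 0.26 in Oci-Ly18, and did not pass in Oci-Ly7 (0.07). NFYB (0.19) and NFYA (0.14), subunits of the CCAAT-binding factor NF-Y, rose, and RFXANK fell (-0.23, SE 0.06, adjusted p = 0.00241). In Oci-Ly7 2 of 8 rose (NFYB 0.40 and RFXAP 0.31) and 0 fell, against 17.7% and 12.2% of all genes.

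Of 13 regulators of CIITA 5 rose and 3 fell on average with the combination, beside 25.7% and 20.7% of all genes. PRDM1 encodes BLIMP-1, a repressor of CIITA in plasma cells. It rose on average by 1.81 (SE 0.14, adjusted p = 1.7e-13), with a step from 2.47 CPM (SD 0.45) to 34.7 CPM (SD 9.6) in Oci-Ly7 (3.81, SE 0.27, adjusted p = 3.2e-14). In Oci-Ly8 it went from 2.22 to 6.06 CPM (1.44), in SUDHL6 from 5.48 to 9.05 CPM (0.72) and in Oci-Ly18 from 5.56 to 13.3 CPM (1.26), with n = 3 in each group. The ETS factors SPIB (-0.49, SE 0.06, adjusted p = 1.8e-10) and SPI1 (-0.33, SE 0.04, adjusted p = 6.0e-10) fell on average.

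In Oci-Ly7, 3 of the 13 regulators rose and 5 fell with the combination. IRF4 fell there from 219.9 to 112 CPM (-0.98, SE 0.13, adjusted p = 1.2e-07) and rose in Oci-Ly8 from 27.2 to 74.9 CPM (1.46). IRF8, a B cell transcription factor of the same family, fell in Oci-Ly7 from 289.7 to 113 CPM (-1.36, SE 0.12, adjusted p = 6.7e-12), in Oci-Ly8 from 191 to 96.5 CPM (-0.99) and in Oci-Ly18 from 292 to 166 CPM (-0.82), and rose in SUDHL6 from 5.30 to 12.1 CPM (1.20). IRF1 rose in Oci-Ly7 (0.96, SE 0.13, adjusted p = 3.6e-08). In the other lines 6 regulators rose and 4 fell in Oci-Ly8, 4 rose and 2 fell in SUDHL6, and 5 rose and 4 fell in Oci-Ly18.

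**Figure D4:**
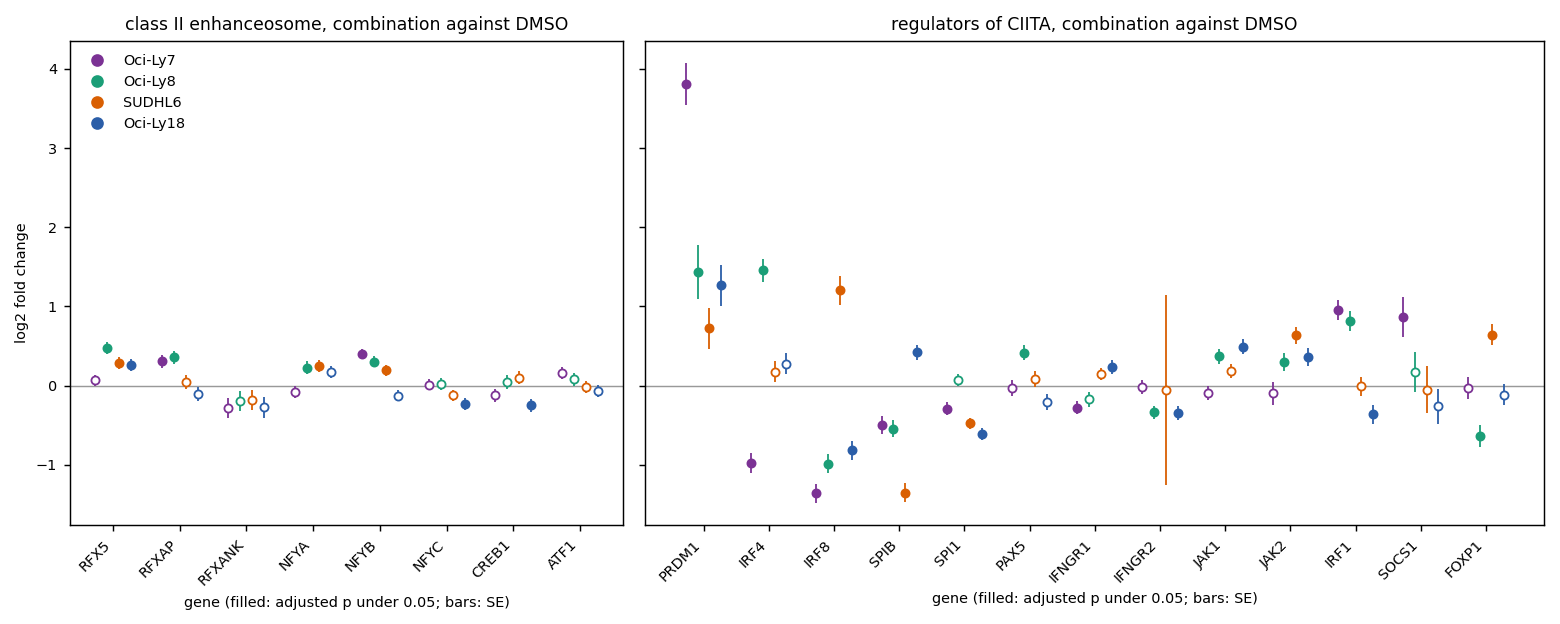
Log2 fold change of the combination against DMSO for 8 enhanceosome genes and 13 regulators of CIITA (horizontal axis) in each line (colour); bars are SE and filled points have an adjusted p under 0.05. PRDM1 lies highest in Oci-Ly7 at 3.81, IRF4 and IRF8 take different directions by line, and the wide bar is IFNGR2 in SUDHL6, where it averaged 0.0211 CPM in DMSO.

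Of 10 CIITA partners and histone enzymes 0 rose and 6 fell on average with the combination, against 25.7% and 20.7% of all genes. The smallest p-values were those of SMARCA4, the ATPase of the BAF remodelling complex (-0.28, SE 0.03, adjusted p = 5.5e-11), EZH2 (-0.26, SE 0.03, adjusted p = 3.4e-10), HDAC1 (-0.29, SE 0.04, adjusted p = 4.7e-09) and HDAC3 (-0.16, SE 0.04, adjusted p = 0.000265). In antigen processing 3 of 10 tested genes rose and 1 fell, beside the same 25.7% and 20.7%. CTSD, an endosomal protease, rose (0.47, SE 0.08, adjusted p = 1.7e-06), and CTSS, the protease that cuts the invariant chain, fell (-0.20, SE 0.03, adjusted p = 3.2e-06). In Oci-Ly7 CTSS went from 78.7 to 58.3 CPM (-0.43). Among 7 genes of class II turnover and surface organisation 1 rose and 1 fell on average (25.7% and 20.7% of all genes), namely CD9 (0.31, SE 0.07, adjusted p = 0.000299) and CD37 (-0.48, SE 0.10, adjusted p = 0.000139). In Oci-Ly7 2 of these rose and 3 fell, among them CD37 (-1.24, SE 0.15, adjusted p = 2.5e-08) and MARCHF1, a ubiquitin ligase for class II, at 1.09 CPM in DMSO and 0.2997 CPM with the combination (-1.83, SE 0.44, adjusted p = 0.00107), and CD83, which opposes it, rose from 27.6 to 42.9 CPM (0.64, SE 0.09, adjusted p = 1.3e-07).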

How the data were processed

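RNA-seq libraries made with a stranded poly(A)+ kit, per the labels' protocols, were counted per gene, and the authors deposited 1 table of raw counts for 48 libraries. STAR, DESeq2 and the builds GRCh38 and hg38 are named in the submitters' processing notes, without role or order. The strand setting of the counting is not given in the sources used here.

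Counts were tested with edgeR 4.0.16 (R 4.3.3, limma 3.58.1): filterByExpr, TMM scaling, 1 fit over all 16 groups with 32 residual degrees of freedom, quasi-likelihood F tests and Benjamini-Hochberg adjustment over all 17749 genes tested, with a threshold of 0.05. CPM are TMM-scaled, log2 CPM use a prior count of 2, and CPM per kb divide by the median length of protein-coding transcripts in GENCODE 29. A mean of 4 lines weights lines equally. On simulated data for the combination average, 89 of 100 genes changed by 1 (log2) and 75 of 100 changed by 0.5 were recovered, with 3 false calls among 17740 genes. For a single line, the combination in SUDHL6, 86 of 100 and 57 of 100 were recovered, with 9 false calls. The simulated libraries were drawn independently, changed genes had at least 1 CPM, and most genes had no change. In the data same-numbered libraries deviated together and many genes changed. The simulated rates may therefore not hold for the data. Gene coordinates are those given in the deposited table of counts, and promoter coordinates and sequence come from RefSeq.

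The members and gene lists were chosen with earlier results of these data known. The genes named from each list were up to 4 called members with the smallest adjusted p in a comparison, and the genes most like the members were the highest and lowest correlations. Items that these rules would also name are not reported here. Alternatives were other scalings and filters, DESeq2 1.42.0, fits within a line, the replicate number as a block, leaving out each line, and leaving out each of 48 libraries. Fits without a library kept the tested genes and the trended dispersion of the full fit. For a comparison within a line, most of them left out a library of another group. Same-numbered libraries deviated together with r above 0.1 in all 18 pairs of groups in SUDHL6 (r from 0.147 to 0.316 over 11364 genes). This held for 13 of 18 pairs in Oci-Ly7, 14 in Oci-Ly8 and 13 in Oci-Ly18. Their mean r was 0.226 in SUDHL6, 0.146 in Oci-Ly7, 0.199 in Oci-Ly8 and 0.158 in Oci-Ly18. The range was 0.0379 to 0.364 in Oci-Ly7, 0.0545 to 0.727 in Oci-Ly8 and 0.077 to 0.302 in Oci-Ly18. Oci-Ly8 DMSO and DOT1Li replicate 3, which differed in how counts depend on transcript length, are same-numbered libraries. Libraries of other numbers had a mean r of -0.113 in SUDHL6, -0.0724 in Oci-Ly7, -0.0967 in Oci-Ly8 and -0.0787 in Oci-Ly18. Deviations were taken from the mean of a group's own libraries and add up to 0. The negative r therefore follows from the r of same-numbered libraries and is no separate evidence of pairing. By the rule that all pairs exceed 0.1, the numbers were taken to pair libraries in SUDHL6 only. Pairing in the other lines is not excluded.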

Additional observations from a re-analysis of the deposited data

Results flagged for a closer look

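For 24 results the effect of a treatment differed between the 4 lines, by edgeR's F test of the line by treatment interaction, adjusted over all genes tested. With the combination this held for all 10 members, with adjusted p-values of 5.8e-10 for CIITA, 3.1e-09 for CD74, 3.2e-09 for HLA-DRA, 2.4e-06 for HLA-DRB1, 1.4e-09 for HLA-DPA1, 2.1e-11 for HLA-DPB1, 4.4e-09 for HLA-DQA1, 1.2e-10 for HLA-DQB1, 4.8e-07 for HLA-DMA and 0.0144 for HLA-DMB. The lowest and highest log2 changes of CIITA were -0.51 in Oci-Ly7 and 0.99 in Oci-Ly8, and those of HLA-DQA1 were -0.52 in Oci-Ly7 and 2.04 in SUDHL6.

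With EZH2i the difference between lines also held for all 10 members, with adjusted p-values of 0.00035 for CIITA, 8.3e-05 for CD74, 0.00202 for HLA-DRA, 0.0069 for HLA-DRB1, 0.00351 for HLA-DPA1, 1.1e-05 for HLA-DPB1, 7.5e-05 for HLA-DQA1, 0.000164 for HLA-DQB1, 0.00158 for HLA-DMA and 0.0202 for HLA-DMB. With DOT1Li it held for 4 members, at 0.0181 for CIITA, 0.00927 for HLA-DPA1, 0.0152 for HLA-DPB1 and 0.00305 for HLA-DQB1.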

How the results depend on the processing

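Of 410 member results 210 were called, and 165 of these were called in each of 48 fits that left out 1 library; none reversed there. The 10 calls of the combination in SUDHL6 and the 8 of its 4-line average were kept in all of those fits. Library totals in place of TMM shifted the median of all genes by 0.11 in Oci-Ly8 and 0.12 in SUDHL6 for the combination, and by 0.19 for untreated SUDHL6 against Oci-Ly8, where CD74 turned from -0.02 to 0.17 (adjusted p = 0.0276). The combination average of CD74 turned from 0.02 to -0.11 without SUDHL6. Causes of these changes were not tested.

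Counts of called members moved as follows. Shares of all genes called were counted in the main fit only, so the counts from the alternatives have none beside them. DESeq2 size factors gave 2 for EZH2i in Oci-Ly8. Library totals gave 10 for the combination against EZH2i on average, 2 for EZH2i against DOT1Li on average, 3 for EZH2i in Oci-Ly8 and 5 for the combination against EZH2i in SUDHL6. Without a low-count filter there were 3 for EZH2i against DOT1Li, 2 for DOT1Li in SUDHL6, 2 for EZH2i in Oci-Ly8, 1 for the combination against EZH2i in Oci-Ly7 and 1 for non-additivity in Oci-Ly8. DESeq2 gave 1 for DOT1Li in SUDHL6, 3 for EZH2i in Oci-Ly8 and 1 for the combination against EZH2i in Oci-Ly7. Fits within a line gave 8 for EZH2i in Oci-Ly7, 0 in Oci-Ly8 and 3 in SUDHL6, 7 for the combination and 1 for DOT1Li in Oci-Ly18, and 2, 1 and 1 for the combination against EZH2i in Oci-Ly7, SUDHL6 and Oci-Ly18.

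Averages without Oci-Ly7 called 8 for EZH2i and 10 for the combination against EZH2i. Without Oci-Ly8 they called 0 for DOT1Li alone, 1 for the combination against EZH2i and 3 for EZH2i against DOT1Li. Without SUDHL6 they called 3 for the combination against DOT1Li, 1 for EZH2i and 2 for DOT1Li, and without Oci-Ly18 3 for EZH2i and 2 for EZH2i against DOT1Li. Without Oci-Ly8 DMSO and DOT1Li replicate 3 together there were 2 for EZH2i against DOT1Li, 2 for EZH2i in Oci-Ly8 and 5 for the combination against EZH2i in SUDHL6. Leaving out replicate 3 of SUDHL6, chosen after seeing the data, gave 2 for EZH2i against DOT1Li, 2 for DOT1Li in SUDHL6, 8 and 4 for EZH2i in Oci-Ly7 and Oci-Ly8, and 1 and 1 for the combination against EZH2i in Oci-Ly7 and SUDHL6; the combination still called 10 in SUDHL6.

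With the replicate block, 1 call was lost and 52 were gained. In SUDHL6, where the numbers were taken to pair libraries, the block gave 2 for DOT1Li and 9 for the combination against EZH2i. In the other lines same-numbered libraries also deviated together on average, though not in every pair above r = 0.1. There the block gave 1 for DOT1Li in Oci-Ly7 and 1 in Oci-Ly18, and 8 for EZH2i in Oci-Ly7 and 4 in Oci-Ly8. It gave 7 for the combination in Oci-Ly18, and 2 and 1 for the combination against EZH2i in Oci-Ly7 and Oci-Ly18. Non-additivity was called for 1 member in Oci-Ly8 and 1 on average. Averages gave 10 for the combination against EZH2i and 3 for EZH2i against DOT1Li.

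Leaving out single libraries gave ranges of 2 to 4 for DOT1Li on average and 1 to 2 for EZH2i against DOT1Li. They were 0 to 2 for DOT1Li in SUDHL6, and 2 to 6, 0 to 2, 5 to 9 and 2 to 5 for EZH2i in Oci-Ly7, in Oci-Ly8, in SUDHL6 and in Oci-Ly18. The combination against DOT1Li ranged from 2 to 6 in Oci-Ly7, 3 to 8 in Oci-Ly8 and 1 to 5 in Oci-Ly18, and against EZH2i from 0 to 1 in Oci-Ly7, 6 to 10 in Oci-Ly8 and 0 to 6 in SUDHL6. An average over only the lines in which a member has counts is the same fit here, since all members had counts in all groups. Oci-Ly8 DOT1Li replicate 3, with 5174269 counts, is the library with the lowest total.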
